A study of Mus musculus with 3 samples.

Results

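Integrins and laminins were examined in mouse liver expressing human YAP, the transcriptional coactivator that the Hippo pathway holds in the cytoplasm. The genes were taken by symbol, as integrin alpha and beta subunits and laminin alpha, beta and gamma chains, and these families were picked with earlier results of these data known. Of the 36 genes described, 34 had a probe on the array, of 20284 genes with a named probe on the array, and Itga10 and Itgae had none. Livers of C57BL/6J mice (c57BL6/J in the labels) received human YAP (WT), YAP (1SA) or YAP (2SA) by hydrodynamic tail vein injection and were analysed at 2 days, with 1 one-colour array per construct. The methods name male mice of 8 weeks as the animals mainly used. The serine-to-alanine mutants escape Hippo inhibition and lie in the nucleus. The vector drives YAP from an alpha-fetoprotein enhancer and albumin promoter, hence in hepatocytes, and the injection leaves a mosaic of hepatocytes with and without the transgene, whereas the RNA came from whole liver with all its cell types. Liver without YAP or without injection is not analysed here, so all 3 groups share the injection and a YAP transgene. The labels do not say whether an array held 1 animal or a pool.

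Integrins are receptors made of 1 alpha and 1 beta subunit that tie a cell to the matrix or to another cell and signal through talin, kindlin and kinases at the inner side of the membrane. The beta2 and beta7 subunits and their alpha partners are carried by leukocytes, and alphaIIb by platelets. The remaining subunits are carried by hepatocytes, bile duct cells, endothelium and stellate cells in varying mixtures. Some of these, such as beta1 and beta3, are broad and lie on blood cells as well. Laminins are trimers of an alpha, a beta and a gamma chain that form the web of basement membranes, and in liver they surround bile ducts, vessels and, sparsely, the sinusoid.

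With 1 array per group there were no replicates to set a difference against, and no test was run. A difference between constructs cannot be told apart from a difference between liver samples. In whole liver, fewer cells of a type and less RNA per cell cannot be told apart either. Intensities are the scanner's brightness after background subtraction and are not scaled between arrays, whose 75th percentiles were 290.8 for YAP (WT), 275.7 for YAP (1SA) and 319.5 for YAP (2SA). All differences are on the log2 scale, taken once the 75th percentile of each array had been set to 0. Repeated spots of the same probe gave a limit for the error between spots, from the median standard deviation over probes of like signal. For a probe of that spread with normal error, 95% of such differences would lie within the limit, and noisier probes would exceed it more often. The limit was 0.16 for probes at or above the 75th percentile, 0.25 for those up to 2 log2 units below it and 0.47 for dimmer ones. A difference past this limit is larger than spot error so estimated, which leaves out the spread between animals. How many of all genes pass the limit was not counted, so counts of members past or within it do not set them apart. The probes well above background numbered 28972 on YAP (WT), 29705 on YAP (1SA) and 30784 on YAP (2SA). Of the hepatocyte markers, 7 of 7 were well above background on every array, with intensities from 13300 (Tat) to 377400 (Alb), as the tissue label says.

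Of the 34 genes, 29 were well above background on all 3 arrays. These were 6 of 8 leukocyte and platelet integrins with a probe, 13 of 16 other integrins and 10 of 10 laminin chains. Itga2, Itgad, Itgb6 and Itgb8 were not well above background on any array. Itga2b, the alphaIIb subunit of platelets, was above background on YAP (1SA) alone, with intensities of 7.03 on YAP (WT), 17.8 on YAP (1SA) and 12.9 on YAP (2SA). Scaled, the YAP (1SA) value was 1.5-fold the lowest signal of any probe counted as well above background on YAP (WT). It was 1.6-fold the probe's own reading on YAP (2SA), which was not well above background. Both ratios rest on 1 spot close to background and are not firm lower bounds. Each of the 45 probes was printed as 1 spot.

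Promoter sequence is shown for leukocyte subunits that stood together in these arrays, namely Itgax, Itga4 and Itgb7, for Itgam, which did not by its brightest probe, for Itga11 and Lamb1, which stood apart in YAP (2SA), and for Itgb1, the common beta subunit, which differed from YAP (WT) by less than spot error. The windows come from RefSeq on GRCm38.p6 and run from 250 bases before to 50 after the annotated start, 5′ to 3′ on the gene's strand. Of the 36 genes, 23 matched, with 26 windows because Itga3, Itgb6 and Lamb3 have windows at alternative starts. A window need not be at the outermost start of a gene, and that of Itgb7 lies inside the gene's annotated span. Capitals mark matches, on either strand, to GGAATG, the core bound by the YAP partner TEAD, to GAGGAA, a core of the myeloid and lymphoid factor PU.1, and to TGTGGT, a core of RUNX factors.
Itgax (chr7:128129300-128129599, plus strand): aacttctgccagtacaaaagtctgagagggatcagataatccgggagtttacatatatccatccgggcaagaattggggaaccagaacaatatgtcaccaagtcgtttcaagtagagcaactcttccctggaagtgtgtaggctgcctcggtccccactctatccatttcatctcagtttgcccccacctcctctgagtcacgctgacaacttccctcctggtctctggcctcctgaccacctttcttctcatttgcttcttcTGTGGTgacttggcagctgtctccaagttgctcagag
Itga4 (chr2:79255176-79255475, plus strand): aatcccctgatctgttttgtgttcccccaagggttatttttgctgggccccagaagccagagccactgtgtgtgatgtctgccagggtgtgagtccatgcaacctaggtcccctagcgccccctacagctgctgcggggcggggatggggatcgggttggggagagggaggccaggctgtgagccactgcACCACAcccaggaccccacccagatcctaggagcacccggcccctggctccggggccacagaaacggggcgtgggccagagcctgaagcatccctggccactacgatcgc
Itgb7 (chr15:102231886-102232185, minus strand): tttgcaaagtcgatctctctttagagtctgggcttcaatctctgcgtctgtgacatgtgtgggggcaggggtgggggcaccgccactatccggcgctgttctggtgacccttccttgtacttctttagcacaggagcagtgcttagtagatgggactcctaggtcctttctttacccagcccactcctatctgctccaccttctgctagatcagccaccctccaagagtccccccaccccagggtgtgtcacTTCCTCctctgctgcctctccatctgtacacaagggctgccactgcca
Itgam (chr7:128062390-128062689, plus strand): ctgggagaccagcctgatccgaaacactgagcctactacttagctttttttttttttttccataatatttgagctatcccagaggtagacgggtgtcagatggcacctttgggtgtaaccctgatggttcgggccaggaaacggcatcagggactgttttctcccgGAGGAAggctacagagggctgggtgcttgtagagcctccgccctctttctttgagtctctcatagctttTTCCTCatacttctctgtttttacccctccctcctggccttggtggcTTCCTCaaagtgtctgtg
Itga11 (chr9:62677605-62677904, plus strand): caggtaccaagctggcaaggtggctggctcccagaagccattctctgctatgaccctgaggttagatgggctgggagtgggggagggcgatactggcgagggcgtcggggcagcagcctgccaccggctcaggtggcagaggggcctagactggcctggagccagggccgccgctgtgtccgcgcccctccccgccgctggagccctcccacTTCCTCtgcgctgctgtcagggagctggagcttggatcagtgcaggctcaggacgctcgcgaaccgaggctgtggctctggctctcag
Lamb1 (chr12:31265043-31265342, plus strand): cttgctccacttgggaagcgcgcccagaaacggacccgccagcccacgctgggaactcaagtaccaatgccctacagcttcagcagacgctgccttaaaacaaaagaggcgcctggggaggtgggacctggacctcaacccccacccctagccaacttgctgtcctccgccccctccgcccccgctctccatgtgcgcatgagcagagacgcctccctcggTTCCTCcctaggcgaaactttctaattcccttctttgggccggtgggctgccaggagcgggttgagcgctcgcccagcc
Itgb1 (chr8:128685404-128685703, plus strand): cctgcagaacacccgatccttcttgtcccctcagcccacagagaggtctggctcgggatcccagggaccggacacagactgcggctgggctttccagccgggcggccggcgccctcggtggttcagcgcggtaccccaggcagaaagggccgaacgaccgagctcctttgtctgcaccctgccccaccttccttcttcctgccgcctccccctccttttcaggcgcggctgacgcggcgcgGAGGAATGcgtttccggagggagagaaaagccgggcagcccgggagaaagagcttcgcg
In Itgb1 the PU.1 and TEAD letters overlap in 1 run of capitals. The TEAD letters were found in 3 of the 26 windows (Itga10, Itgb1 and 1 start of Lamb3) and in 14.7% of all 32851 windows. The PU.1 letters were found in 14 of the 26 windows and in 28.3% of all windows, and the RUNX letters in 3 of the 26 (Itga3, Itga4 and Itgax) and in 16.8% of all. Of the leukocyte and platelet integrins, Itga2b, Itgam and Itgb7 held the PU.1 letters, and Itga4 and Itgax did not. Itgal, Itgad, Itgae and Itgb2 had no window and were not searched. Most windows with them were of other genes, namely Itga3, Itga5, Itga11, Itgav, Itgb1, Itgb6, Lama2, Lama5, Lamb1, Lamb2 and Lamb3. Itgam held 3 PU.1 matches. A match is a string of letters and was not tested as a binding site.

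The leukocyte integrins differed most between the mutants. Itgax, which encodes CD11c of macrophages and dendritic cells, had an intensity of 450.0 on YAP (WT), 187.4 on YAP (1SA) and 627.7 on YAP (2SA). It was 2.28-fold lower in YAP (1SA) than in YAP (WT), a log2 difference of -1.19, and 0.34 higher in YAP (2SA). Between the mutants it was 2.89-fold higher in YAP (2SA), a difference of 1.53. Itgb2, the CD18 chain shared by CD11a, CD11b and CD11c, had 650.1 on YAP (WT), 368.3 on YAP (1SA) and 907.4 on YAP (2SA). Its differences from YAP (WT) were -0.74 in YAP (1SA) and 0.35 in YAP (2SA), and it was 2.13-fold higher in YAP (2SA) than in YAP (1SA). YAP (1SA) was the lowest and YAP (2SA) the highest array for both genes, and every one of these differences was past the limit of spot error.

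The same order held for the alpha4 and beta7 subunits, which pair in the receptor that brings lymphocytes to the gut. Itga4, which also pairs with beta1 as the receptor for VCAM1, had 236.1 on YAP (WT), 139.7 on YAP (1SA) and 348.6 on YAP (2SA). Its differences from YAP (WT) were -0.68 in YAP (1SA) and 0.43 in YAP (2SA), and it was 2.15-fold higher in YAP (2SA) than in YAP (1SA). Itgb7 had 291.7 on YAP (WT), 166.6 on YAP (1SA) and 440.3 on YAP (2SA). Its differences from YAP (WT) were -0.73 and 0.46, and it was 2.28-fold higher in YAP (2SA) than in YAP (1SA). A dimmer Itga4 probe was above background on YAP (2SA) alone. Scaled, its value there was 1.29-fold the lowest signal of any probe counted as well above background on YAP (1SA), which is not a firm lower bound.

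Itgal and Itgam did not follow these 4 genes by their brightest probes. Itgal, the CD11a chain of lymphocytes, had 107.4 on YAP (WT), 113.7 on YAP (1SA) and 162.8 on YAP (2SA). Its difference from YAP (WT) was 0.16 in YAP (1SA), within the limit of 0.25, and 0.46 in YAP (2SA). The dimmer Itgal probe differed by -0.05 and 0.11. Itgal was thus highest in YAP (2SA) on both probes, and its order of YAP (WT) and YAP (1SA) was not the same on both.

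Itgam, which encodes CD11b of monocytes, macrophages and neutrophils, had 3 probes that disagreed. The brightest had 3852 on YAP (WT), 3203 on YAP (1SA) and 3749 on YAP (2SA), so YAP (WT) was highest, and the mutants differed by 0.01. The next, for the same transcript NM_001082960, had 47.8 on YAP (WT), 31.3 on YAP (1SA) and 78.3 on YAP (2SA), and it was 2.16-fold higher in YAP (2SA) than in YAP (1SA). The dimmest, for NM_008401, had 36.6, 25.8 and 34.6 in the same order, and the mutants differed by 0.21. All 3 probes were lower in YAP (1SA) than in YAP (WT), by differences from -0.53 to -0.19. The part of the transcript that each probe reads was not analysed here.

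**Figure D1:**
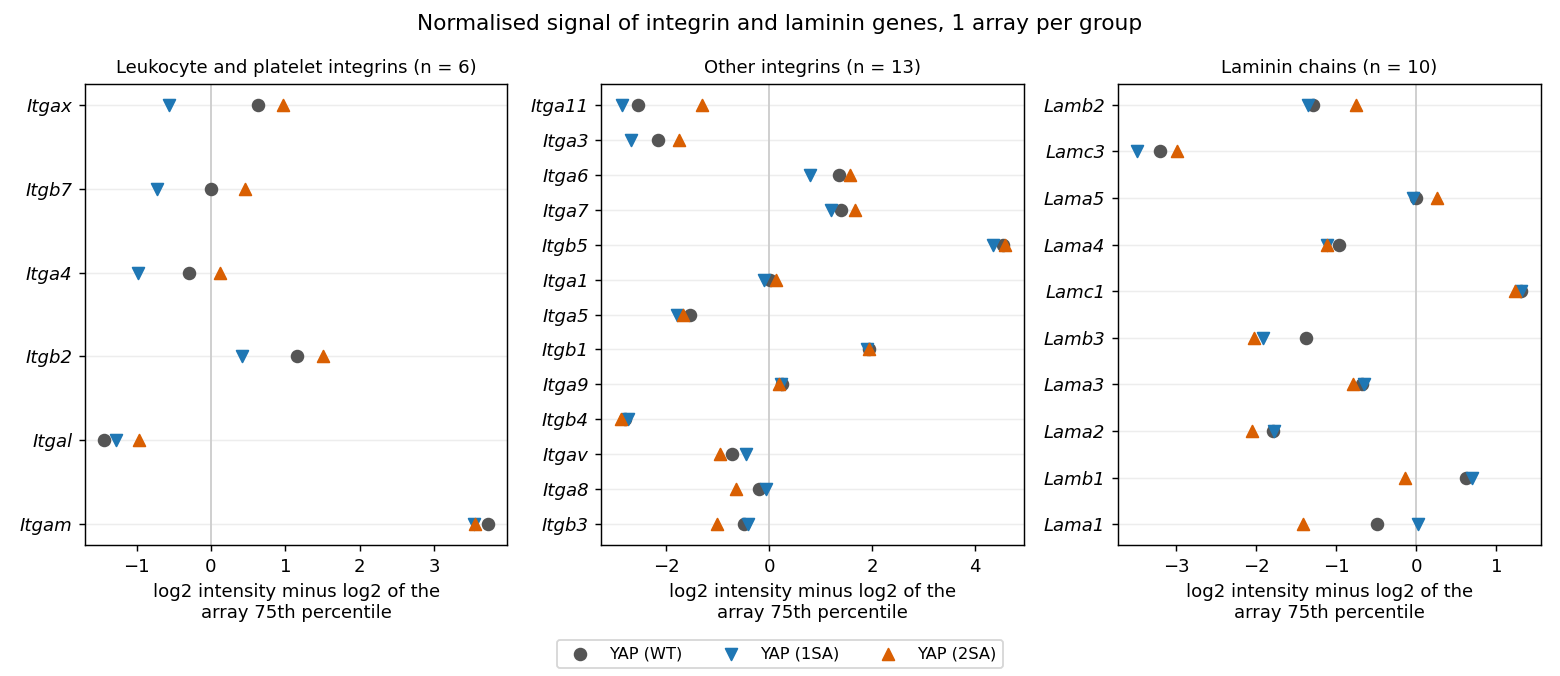
Normalised log2 signal (x axis) of the 29 genes measured on all 3 arrays, 1 point per array, in panels for leukocyte and platelet integrins (6), other integrins (13) and laminin chains (10). Genes are ordered by YAP (2SA) minus YAP (1SA), and Itgax, Itgb7, Itga4 and Itgb2 lie lowest on YAP (1SA) and highest on YAP (2SA); positions along x are not comparable between genes, since each is read by its own probe.

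Over the 6 measured leukocyte and platelet integrins, the median difference was -0.71 in YAP (1SA) against YAP (WT), 0.39 in YAP (2SA) against YAP (WT) and 1.1 in YAP (2SA) against YAP (1SA). Over the 13626 genes measured on all 3 arrays the medians were -0.0017, -0.030 and -0.029. In YAP (2SA) against YAP (1SA), 4 of the 6 were at least 2-fold higher, where 2.47% of all genes were, and none was at least 2-fold lower, where 1.12% of all genes were. Both comparisons with YAP (WT) share that array, so they are not independent of each other. With normexp background correction the median of 1.1 became 0.89, and Itgb2 and Itga4 were under 2-fold, at 0.98 and 0.81.

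General leukocyte markers differed between the arrays in the same way. All 5 of 5 (Ptprc, Laptm5, Coro1a, Cd53 and Cd52) were lower in YAP (1SA) than in YAP (WT), with a median of -0.78, and all 5 were higher in YAP (2SA), with a median of 0.37. Their summed signal, in units of the array's 75th percentile, was 28.1 on YAP (WT), 16.5 on YAP (1SA) and 39.3 on YAP (2SA). Cd45 (Ptprc) itself had an intensity of 233.3, 144.9 and 369.5. The part that the number of leukocytes has in the integrin differences was not tested.

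The markers of single leukocyte types did not all go the same way. The Kupffer cell markers, 7 of 7 measured, had a summed signal of 204.6 on YAP (WT), 147.8 on YAP (1SA) and 102.3 on YAP (2SA), with YAP (2SA) lowest. This sum was carried by Cd5l and Marco. All 7 were lower in YAP (2SA) than in YAP (WT). In YAP (1SA) against YAP (WT) 5 were lower and 2 higher, Clec4f at 0.45 and Vsig4 at 0.07. Between the mutants 6 were lower in YAP (2SA) and 1 higher, Adgre1 at 0.33. Of the monocyte and macrophage markers, 5 of 7 were measured, with sums of 45.7, 43.6 and 49.5, and they split. Cx3cr1 was 1.77 and Lyz2 1.20 higher in YAP (2SA) than in YAP (1SA), whereas Ccr2, of recruited monocytes, was lower, at -1.49, with YAP (1SA) its highest array. Against YAP (WT), Ccr2 was 2.33 higher in YAP (1SA), where the 4 other markers were lower, and 0.85 higher in YAP (2SA). The neutrophil markers, 4 of 8 measured, had sums of 3.09, 3.11 and 3.30, and Ly6g, Mmp8, Cxcr2 and Ngp were not measured on all 3 arrays. Sums were 0.76, 0.68 and 0.71 for dendritic cells (4 of 5), 9.16, 9.06 and 8.99 for T and NK cells (4 of 7) and 1.03, 1.09 and 1.16 for B cells (3 of 4). The T and NK sum was carried by Cd3e and Nkg7, while 3 of its 4 markers were higher in YAP (2SA) than in YAP (1SA), with a median of 0.34 and Cd3g at 1.22. The platelet markers, 3 of 6 measured, had sums of 3.21, 2.34 and 6.01, led by Pf4, while Gp9, Gp1ba and Gp6 were not measured on all 3. The part of any one cell type was not tested.

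Among integrins outside the leukocyte group, Itga11 alone passed 2-fold, and 4 of 13 subunits stayed within spot error in both comparisons with YAP (WT). Itgb1, the partner of most matrix-binding alpha subunits, had 1108 on YAP (WT), 1031 on YAP (1SA) and 1231 on YAP (2SA). Its differences of -0.03 and 0.02 from YAP (WT) lay within spot error. Itgb5, a partner of alphaV for vitronectin, had 6760, 5623 and 7638 on the same arrays. Its difference from YAP (WT) was -0.19 in YAP (1SA), past the limit of 0.16, and 0.04 in YAP (2SA). Itga9, Itgb4 and Itga1 also stayed within the limit in both comparisons with YAP (WT). Itga5, the fibronectin receptor alpha5, was lower in YAP (1SA) than in YAP (WT) by -0.25, just past the limit, and differed by -0.13 in YAP (2SA).

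Itga11, a collagen receptor subunit known from fibroblasts, was the only member at least 2-fold higher in YAP (2SA) than in YAP (WT), where 1.12% of all genes were. It had 49.6 on YAP (WT), 37.9 on YAP (1SA) and 129.8 on YAP (2SA). It was 2.38-fold higher in YAP (2SA) than in YAP (WT) and 2.95-fold higher than in YAP (1SA), while YAP (1SA) and YAP (WT) differed by -0.31, within the limit of 0.47 for a probe so dim. With normexp, which shrinks differences of dim probes, the difference of 1.25 from YAP (WT) became 0.66. YAP (2SA) was therefore the array that stood apart, on a single dim probe. The stellate cell and fibroblast markers were lower in YAP (2SA), with a median difference of -0.60 from YAP (WT).

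The laminin-binding alpha subunits alpha3, alpha6 and alpha7 had their lowest value on YAP (1SA) and their highest on YAP (2SA). This order was not particular to them, since Itgax, Itgb2, Itga4 and Itgb7 had it with both differences from YAP (WT) past spot error. Itga1, Itga11, Itgb5 and, by its brighter probe, Itgb1 had it too, but not with both differences past spot error. Itga6, which pairs with beta1 or beta4 on epithelium and endothelium, had 739.7 on YAP (WT), 478.9 on YAP (1SA) and 948.0 on YAP (2SA). Its differences from YAP (WT) were -0.55 and 0.22, both past the limit, and it was 1.71-fold higher in YAP (2SA) than in YAP (1SA). Itga3 had 65.1, 43.1 and 94.5, with differences of -0.52 and 0.40 from YAP (WT), the latter within the limit of 0.47, and with normexp they were -0.20 and 0.15. Itga7, best known from muscle, had 761.1, 637.3 and 1019, with differences of -0.18 and 0.29. Itgb4, the other partner of alpha6, had 41.5, 40.8 and 43.1 and stayed within spot error.

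Itga8, Itgb3 and, by its brighter probe, Itgav were lowest on YAP (2SA). Itga8, a subunit known from stellate cells and smooth muscle, had 251.8 on YAP (WT), 262.5 on YAP (1SA) and 203.6 on YAP (2SA). It differed from YAP (WT) by 0.14 in YAP (1SA) and -0.44 in YAP (2SA). Itgb3, which pairs with alphaV on endothelium and with alphaIIb on platelets, had 207.0, 206.0 and 158.9, with differences of 0.07 and -0.52. Itgav had 175.4, 200.4 and 163.8 by its brighter probe, with differences of 0.27 and -0.23, but the dimmer probe differed by -0.02 and 0.17, so its direction rests on the probe chosen.

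By spot error, 6 of these 13 subunits were past the limit in YAP (1SA) against YAP (WT), 5 in YAP (2SA) against YAP (WT) and 9 between the mutants. The share of all genes past it was not counted, so these numbers do not set the subunits apart. Scaled by the array median, Itga7, Itgb5 and Itga5 in YAP (1SA) against YAP (WT) were at -0.14, -0.15 and -0.22. Those values lie inside the limits of 0.16, 0.16 and 0.25 from the main scaling. Over the 13 measured subunits outside the leukocyte group, the median difference was -0.10 in YAP (1SA) and 0.02 in YAP (2SA) against YAP (WT), and 0.13 in YAP (2SA) against YAP (1SA). Only Itga11 passed 2-fold in any of the 3 comparisons, where 0.543% to 2.47% of all genes did, by comparison and direction. At 1.5-fold, 3 were higher in YAP (2SA) than in YAP (1SA) (Itga11, Itga3 and Itga6), where 6.99% of all genes were, and 1 was lower (Itgb3), where 4.56% were. With normexp Itga3, at 0.34, and Itgb3, at -0.49, no longer passed 1.5-fold.

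**Figure D2:**
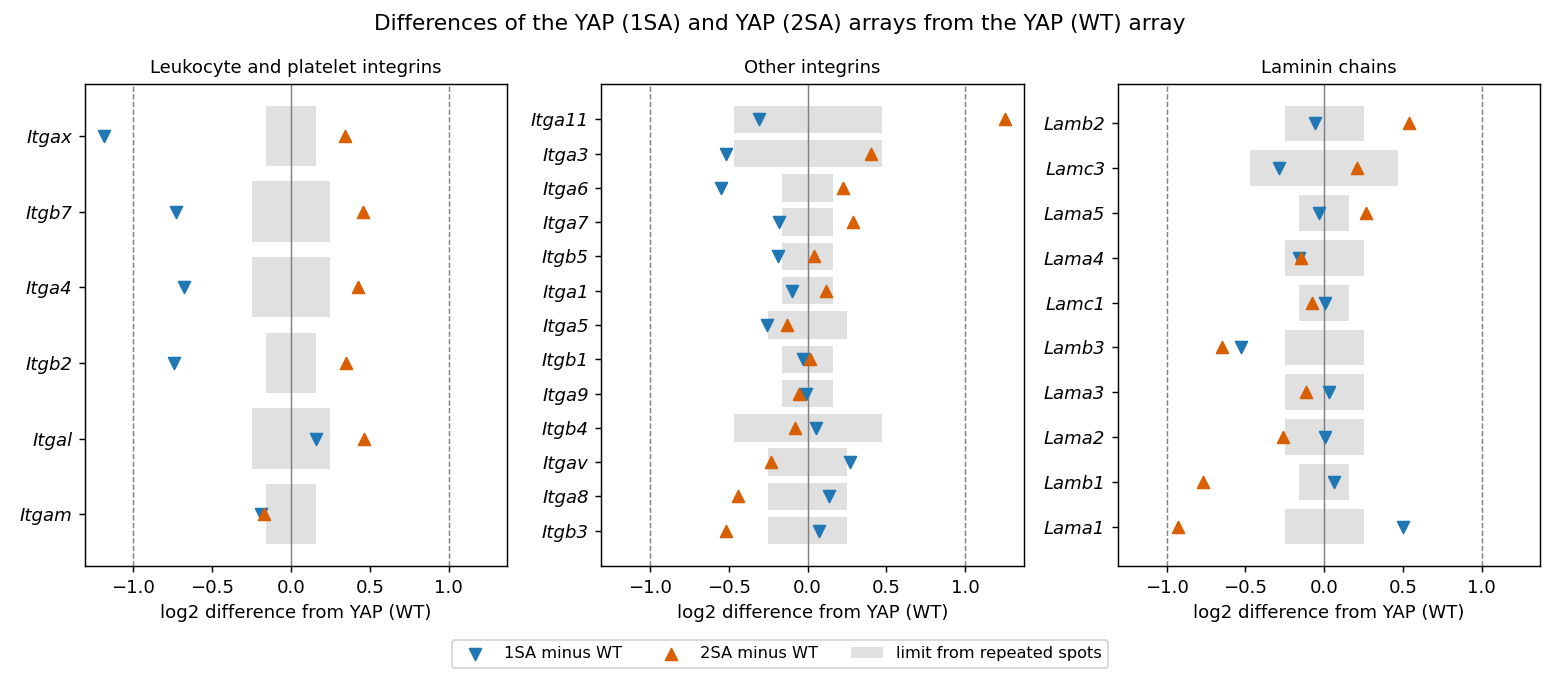
Log2 difference of YAP (1SA) and of YAP (2SA) from YAP (WT) (x axis) for each of the 29 measured genes, ordered by YAP (2SA) minus YAP (1SA); grey bars span the 95% limit of spot error for probes of like signal and dashed lines mark 2-fold. The downward triangle of Itgax at -1.19 and the upward triangle of Itga11 at 1.25 are the only points past 2-fold, and both series share the YAP (WT) array.

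Single laminin chains differed between the arrays, while the medians over the chains lay near those of all genes. Lama1, the alpha1 chain of early basement membranes, had 207.8 on YAP (WT), 279.0 on YAP (1SA) and 120.1 on YAP (2SA). It was 0.50 higher in YAP (1SA) and 1.90-fold lower in YAP (2SA) than in YAP (WT), and 2.69-fold lower in YAP (2SA) than in YAP (1SA). Lamb1, the beta1 chain common to most vascular and sinusoidal laminins, had 449.1, 445.0 and 289.3. It stayed within spot error in YAP (1SA), at 0.06, and was 1.71-fold lower in YAP (2SA) than in YAP (WT). For both chains YAP (2SA) was the lowest array.

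The alpha3 and beta3 chains, known from epithelial basement membranes, differed from each other. Lamb3 had 111.6 on YAP (WT), 73.5 on YAP (1SA) and 78.1 on YAP (2SA), hence it was highest on YAP (WT), with differences of -0.53 in YAP (1SA) and -0.65 in YAP (2SA). Lama3 had 181.6, 176.2 and 184.6 by its brighter probe and stayed within the limit in all 3 comparisons, while its dimmer probe differed by 0.32 in YAP (1SA) and 0.02 in YAP (2SA).

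Lamb2 and Lama5, chains of vascular and bile duct basement membranes, were highest on YAP (2SA). Lamb2 had 118.6 on YAP (WT), 108.3 on YAP (1SA) and 189.1 on YAP (2SA), with differences of -0.06 and 0.54 from YAP (WT). Lama5 had 289.8, 268.2 and 383.4, with differences of -0.03 and 0.27. Lamc1, the gamma chain of most laminins, had 720.0, 684.4 and 749.4 and differed from YAP (WT) by 0.0039 and -0.08, within spot error. Lama4, of endothelial basement membrane, differed from YAP (WT) by -0.16 and -0.15, both within the limit. Lama2, the alpha2 chain known from muscle, differed by 0.0052 and -0.26, the latter just past the limit of 0.25. Lamc3 differed by -0.28 and 0.21, both within 0.47, and the latter was -0.01 with normexp.

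Of the 10 laminin chains 2 were past spot error in YAP (1SA) against YAP (WT), 6 in YAP (2SA) against YAP (WT) and 6 between the mutants. Since the share of all genes past spot error was not counted, these numbers do not set the laminins apart. Over the 10 laminin chains the median difference was -0.02 in YAP (1SA) and -0.13 in YAP (2SA) against YAP (WT), and -0.10 in YAP (2SA) against YAP (1SA). At 1.5-fold, 3 were lower in YAP (2SA) than in YAP (WT) (Lama1, Lamb1 and Lamb3), where 3.02% of all genes were. With normexp Lamb3 no longer passed 1.5-fold, at -0.47, and its difference in YAP (1SA) was -0.27. In YAP (1SA) against YAP (WT) 0 of the 10 passed 1.5-fold, where 4.67% of all genes were lower.

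Over all 29 measured integrins and laminins, 1 was at least 2-fold lower in YAP (1SA) than in YAP (WT) (Itgax), where 1.14% of all genes were, and 0 were higher, where 0.727% were. In YAP (2SA) against YAP (WT), 1 was at least 2-fold higher (Itga11), where 1.12% were, and 0 were lower, where 0.543% were. In YAP (2SA) against YAP (1SA), 5 were at least 2-fold higher (Itgax, Itga4, Itgb2, Itgb7 and Itga11), where 2.47% were, and 1 was lower (Lama1), where 1.12% were. The counts against YAP (WT) were thus 1 gene each, and the larger count lay between the mutants. At 1.5-fold, 0 were higher in YAP (1SA) than in YAP (WT), where 3.08% of all genes were, and 4 were lower, where 4.67% were. In YAP (2SA) against YAP (WT), 1 was at least 1.5-fold higher, where 3.79% were, and 3 were lower, where 3.02% were. Between the mutants 8 were at least 1.5-fold higher in YAP (2SA), where 6.99% were, and 3 were lower, where 4.56% were. No member reached 3-fold in any comparison. Of all genes, 0.191% were at least 3-fold higher and 0.213% lower in YAP (1SA) against YAP (WT), 0.25% higher and 0.147% lower in YAP (2SA) against YAP (WT), and 0.631% higher and 0.25% lower in YAP (2SA) against YAP (1SA). By sign alone, 10 of the 29 lay above 0 in YAP (1SA) against YAP (WT), where 49.7% of all genes did, 15 in YAP (2SA) against YAP (WT), where 43.6% did, and 18 in YAP (2SA) against YAP (1SA), where 45.6% did. These 29 genes passed a filter that asked for signal on all 3 arrays, and they are not all of the 34.

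Markers of other liver cell types are given beside these values. The bile duct markers, 4 of 5 measured, had a summed signal of 0.99 on YAP (WT), 0.64 on YAP (1SA) and 1.02 on YAP (2SA), and all 4 (Krt19, Krt7, Epcam and Sox9) were lower in YAP (1SA) than in YAP (WT). Itga3 and Itga6 had the same lowest array, but so did many other members, among them Itga5, Itga7, Itgb5, Itgax and Itgb2. Itga1 and Itgb1 had it too, within spot error of YAP (WT). Itgb4 did not. The stellate cell and fibroblast markers, 5 of 6 measured, had sums of 23.8, 26.4 and 15.8, and all 5 (Lrat, Des, Colec11, Pdgfrb and Dcn) were lower in YAP (2SA) than in YAP (WT), with a median of -0.60. Itga8, Lama1 and Lamb1 had the same lowest array, as did other members such as Itgb3, Lama2 and Lamb3, and Itga11 did not. The sums were 59.2, 60.7 and 47.9 for sinusoidal endothelium (6 of 6) and 30.8, 32.5 and 28.9 for other endothelium (5 of 5), and for hepatocytes (7 of 7) they were 2921, 3188 and 2539. The sinusoidal markers were split, with Clec4g at -0.59 and Lyve1 at 0.37 in YAP (2SA) against YAP (WT), and 3 of 6 were higher in YAP (2SA) than in YAP (1SA). The part of these cell types in the integrin and laminin values was not tested.

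**Figure D3:**
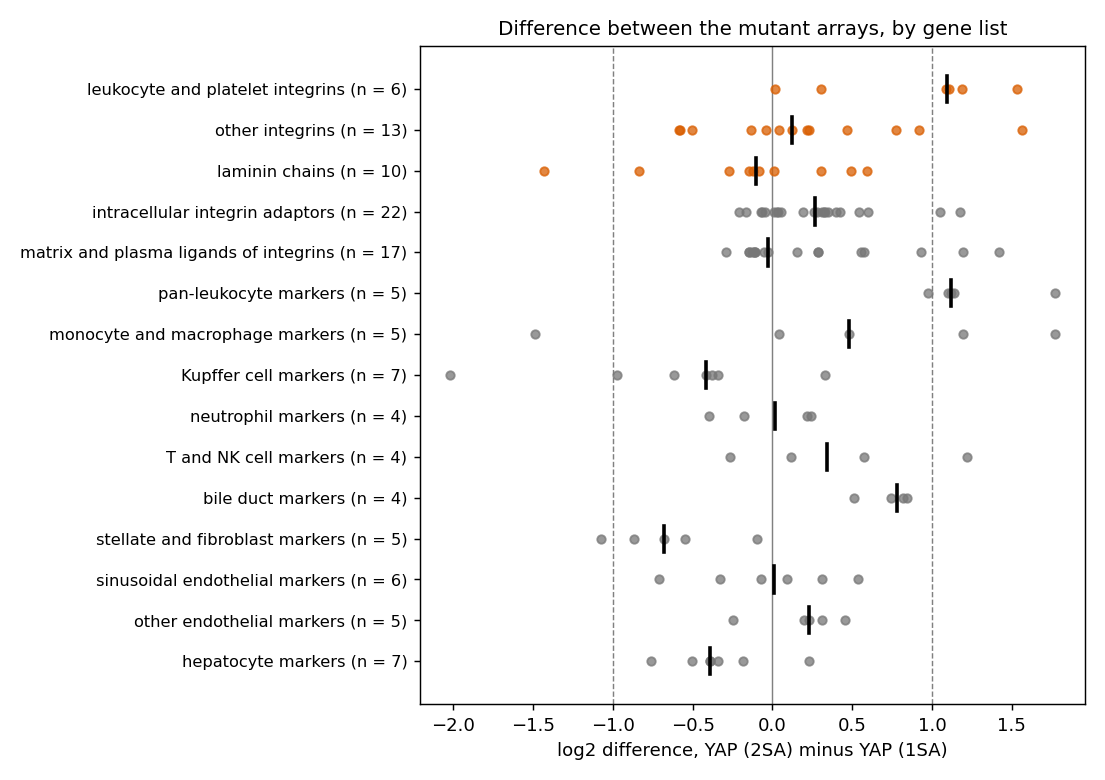
Log2 difference YAP (2SA) minus YAP (1SA) (x axis) of every measured gene, in 3 groups of integrins and laminins (orange) and in lists of integrin partners and cell type markers (grey); black bars are medians and dashed lines mark 2-fold. The leukocyte and platelet integrins (median 1.1) and the pan-leukocyte markers (1.12) lie to the right, the stellate and fibroblast markers (-0.68) to the left, and the laminin chains (-0.10) around 0.

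The proteins that couple integrins to the cytoskeleton were compared next. Of 23 listed adaptors 22 were measured, with a median of -0.06 in YAP (1SA) and 0.16 in YAP (2SA) against YAP (WT), and 0.27 in YAP (2SA) against YAP (1SA). The only 2 past 2-fold, both higher in YAP (2SA) than in YAP (1SA), were Fermt3 (1.18) and Parvg (1.05), the kindlin and the parvin of blood cells, where 2.47% of all genes were. Fermt3 had 250.8 on YAP (WT), 140.4 on YAP (1SA) and 368.1 on YAP (2SA), the order seen for Itgb2. Fermt2, a kindlin of other tissues, was 0.60 higher in YAP (2SA) than in YAP (WT), the only adaptor past 1.5-fold in that comparison, where 3.79% of all genes were higher. Fermt2 was 0.40 and Parva 0.19 higher in YAP (2SA) than in YAP (1SA), and Ilk, the kinase-like scaffold that binds the parvins, 0.03. Tln1, the talin that activates integrins, had 7286, 6385 and 11230 and was 0.49 higher in YAP (2SA) than in YAP (WT).

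Among the ligands, Spp1 and Thbs1 were at least 2-fold lower in YAP (1SA) than in YAP (WT), where 1.14% of all genes were. Both were also at least 2-fold higher in YAP (2SA) than in YAP (1SA), at 1.42 and 1.20, where 2.47% of all genes were. Of 19 listed matrix and plasma ligands 17 were measured, with medians of -0.21 and 0.0070 against YAP (WT). Spp1, osteopontin, a ligand of alphaV, alpha4 and alpha9 integrins made by bile duct cells and macrophages, had 3536 on YAP (WT), 1009 on YAP (1SA) and 3132 on YAP (2SA), a difference of -1.73 in YAP (1SA). Thbs1, thrombospondin, had 41.5, 18.0 and 47.9, with -1.13 in YAP (1SA) and 0.07 in YAP (2SA). Nid1, which links laminin to collagen IV, had 1276, 739.3 and 1637, with differences of -0.71 and 0.22. All 3 were lowest on YAP (1SA). The plasma ligands fibronectin (Fn1), vitronectin (Vtn) and fibrinogen (Fga, Fgb and Fgg) differed from YAP (WT) by at most 0.22 in size.

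All 7 listed counter-receptors of leukocyte integrins were measured, and none passed 2-fold in any comparison. Of all genes, 0.543% to 2.47% did, by comparison and direction, so none of 7 does not set this list apart. Vcam1, the partner of alpha4, had 3103 on YAP (WT), 1985 on YAP (1SA) and 2024 on YAP (2SA), with differences of -0.57 and -0.75, so it was highest on YAP (WT). Icam1, the partner of the beta2 integrins, differed by -0.20 and 0.11. Of the laminin receptors that are not integrins, Bcam differed by -0.50 and 0.04 and dystroglycan (Dag1) by -0.03 and 0.24.

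Of the 34 genes with a probe, 7 had over 1 probe measured on all 3 arrays. For YAP (2SA) against YAP (1SA) the probes of Itga1, Itgal, Itgam, Itgb1, Lama2 and Lama3 had 1 sign within each gene. Those of Itgav did not, at -0.50 and 0.19. The brightest probes of Itgam (0.01), Itgb1 (0.04) and Lama3 (-0.15) lay within spot error, so a shared sign is weak agreement there. The spread within Itgam, from 0.01 to 1.11, was the widest, and a single-probe gene such as Itgax, Itgb2, Itgb7 or Itga11 has no such check.

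**Figure D4:**
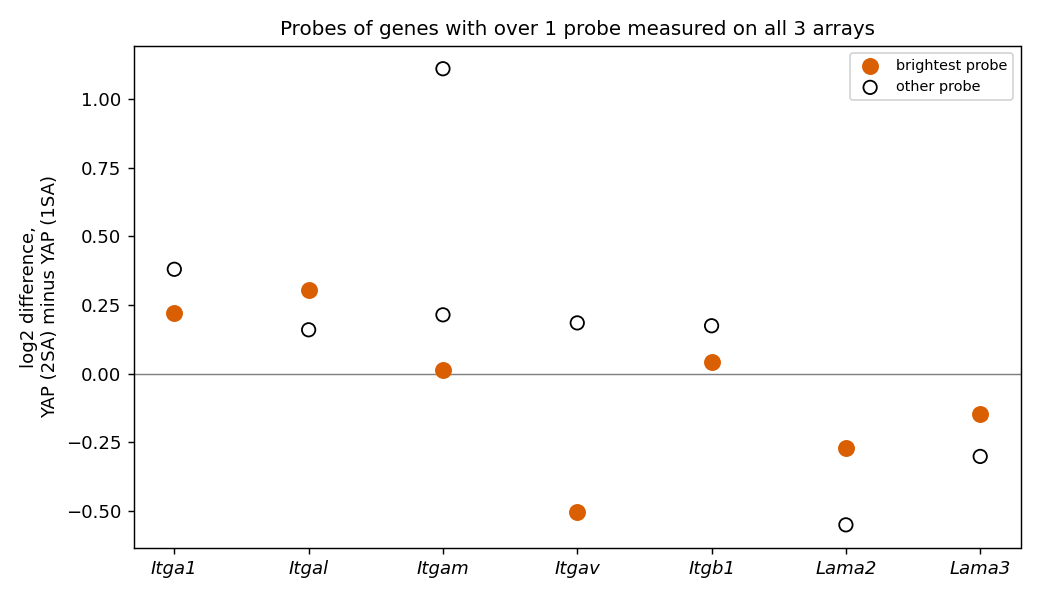
Log2 difference YAP (2SA) minus YAP (1SA) (y axis) of each probe for the 7 genes with over 1 probe measured on all 3 arrays; filled points are the brightest probe, which stands for the gene, and open points the others. The probes of Itgam spread from 0.01 to 1.11 and those of Itgav lie on both sides of 0.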

How the data were processed

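Mouse liver RNA was hybridised to 3 one-colour Agilent arrays, 1 per construct. The deposited intensity of each spot was made by the authors with Feature Extraction 10.10.1.1, on a design annotated on mm9 per the file headers, and is background-subtracted and detrended within the array. The deposited series matrix holds the same intensity times 1 constant per array (3.02, 3.08 and 2.81), of unstated source, and its column medians were 61.8, 58.4 and 62.3.

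Outlier spots (148 to 182 per array) were left out, no spot was saturated, log2 intensities were averaged per probe, and each array's 75th percentile, on the log2 scale, was subtracted from them. A probe was measured where at least 50% of its spots were well above background. RefSeq accessions named 26762 of 55681 probes through GRCm38.p6, used for names only. Each gene was represented by the brightest of its probes that were measured on all 3 arrays (13626 genes). With 1 array per group no test was run, and genes past 2-fold were counted. A gene that the naming rule also covers is not reported here and was left out of every count over integrins and laminins. All members measured on all 3 arrays could be named. The 1SA, 2SA and WT labels come from sample titles. Spot error came from 282 probes with at least 10 spots. The gene lists and members were chosen with earlier results of these data known. Calculations used Python 3.11.15, pandas 2.3.3, numpy 2.4.6, R 4.3.3 and limma 3.58.1 (normexp, offset 50), and the steps were tested on simulated data. Alternatives were quantile or median scaling, normexp on median signals, the series matrix, other filters on dim probes, other fold thresholds and the mean of all probes.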

Additional observations from a re-analysis of the deposited data

Results flagged for a closer look

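In all, 5 of the measured integrins and laminins lay on opposite sides of YAP (WT) in the mutants, each past spot error, and differed at least 2-fold between the mutants. This rule was applied to integrins and laminins only. The share of all genes that meet it was not counted, so it is not shown to be particular to them. For YAP (2SA) minus YAP (1SA) the log2 differences were 1.53 for Itgax, 1.11 for Itga4, 1.09 for Itgb2, 1.19 for Itgb7 and -1.43 for Lama1. Each group was 1 array, so these differences between the mutants were not tested.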

How the results depend on the processing

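Scaling by quantiles, by the array median or by the series matrix moved the median of all measured probes by at most 0.08. Quantile and median scaling and the series matrix left each group median within 1 SD of spot error (0.10) and each 2-fold count within 1.5 times, and so did the mean of all probes of a gene. In 17 cases a gene's difference changed sign under an alternative, all with a main size of at most 0.21 (Lamc3), among them Itgam (-0.17 to 0.06 in YAP (2SA) against YAP (WT) with the mean of its probes). With normexp the leukocyte and platelet medians were -0.49 in YAP (1SA) against YAP (WT), 0.26 in YAP (2SA) against YAP (WT) and 0.89 between the mutants, and 0 genes were at least 2-fold higher in YAP (2SA) against YAP (WT) and 2 against YAP (1SA). With no filter on dim probes the leukocyte and platelet medians were -0.43 in YAP (1SA) against YAP (WT) and 0.70 between the mutants, over 8 genes, and 1 gene was at least 2-fold higher in YAP (1SA) against YAP (WT). With the stricter filter 13 genes remained, of which 0 were at least 2-fold higher in YAP (2SA) against YAP (WT), and 3 were higher and 0 lower in YAP (2SA) against YAP (1SA). At 1.5-fold, 4 genes were lower in YAP (1SA) and 3 in YAP (2SA) against YAP (WT), and 8 were higher and 3 lower in YAP (2SA) against YAP (1SA). At 3-fold, 0 were lower in YAP (1SA) against YAP (WT), 0 higher in YAP (2SA) against YAP (WT), and 0 higher and 0 lower between the mutants. The cause was not tested beyond fewer genes entering or passing. With another Itgam probe, chosen after the values were seen, the leukocyte and platelet median between the mutants was 1.11. No paired analysis was possible because 1 array stood for each construct and nothing was tested. A slide block was not run for the same reason. The number of arrays limits the precision.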
